A study of Homo sapiens with 48 samples.

Results

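The 39 genes described here make the machinery that copies DNA and the switch that starts it: the MCM helicase (6 genes), the factors that license and fire origins (10), the sliding clamp, its loader, the polymerases and Okazaki fragment enzymes (12), the enzymes of nucleotide supply (4) and the G1/S regulators and S-phase factors (7). They were listed by name for their known function, and no measured value entered the rule, although the list was drawn up with earlier results of these data known. All 39 were found once in each of the 48 libraries and all 39 passed the filter on low values in each of 3 experiments, among 15032 tested genes for coculture, 14005 for the knockout tumours and 15354 for the mutants. Every library came from U2932, a human diffuse large B-cell lymphoma line, with 3 libraries in each of 16 groups, made from poly(A) RNA with a strand-marking kit. In the coculture experiment, KLHL6 wild-type (WT) and KLHL6-KO cells were kept for 0, 3, 8 or 12 h with OP9 stromal cells that stably express the NOTCH ligand DLL1. In the knockout tumours, cells labelled WT, KLHL6-KO, NOTCH2-KO or DKO (both genes) were xenografted into NSG mice, which lack T, B and NK cells. In the mutant tumours the xenografted cells stably expressed NOTCH2(WT) or its variant S2156A, R2400* or Q2140*, where the asterisk is a stop. All tumour-bearing mice, controls included, were given the drug combination CHOP, which joins prednisone to cyclophosphamide, vincristine and doxorubicin, and tumours were collected at 1 cm3. The labels do not say whether a knockout line is 1 clone, whether the cells of the mutant tumours kept their own NOTCH2, or whether replicates are separate cultures or animals, so a p-value measures the spread between these libraries.

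The decision to copy the genome is made in late G1. Cyclin E, the product of CCNE1 and CCNE2, activates CDK2, and the transcription factors E2F1 and E2F2 switch on a shared set of genes once the RB protein lets go of them. ORC, CDC6 and CDT1 load the MCM2 to MCM7 ring onto origins, MCM10, CDC45 and the GINS complex turn it into an active helicase, and the polymerases follow on primers made by the polymerase alpha-primase. Transcripts of many of these genes peak around the G1/S border, and diffuse large B-cell lymphoma is a tumour with a high share of dividing cells.

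Depth per library was 11.1 to 17.4 M reads for coculture, 3.70 to 15.1 M for the knockout tumours (lowest for DKO replicate 3, as labelled) and 12.6 to 17.1 M for the mutants. Levels are given as normalised counts, the authors' counts divided by a size factor, as mean ± SD of n = 3 libraries. Changes are log2 of value + 2, ± SE, from a limma fit over all libraries of an experiment, and a call means that the p, adjusted after Benjamini-Hochberg over all tested genes, was under 0.05. A bare number in brackets after a library left out is the adjusted p without that library. KLHL6 itself stood at 2381 ± 177 in KLHL6-KO and 5389 ± 747 in WT cells before coculture, a difference of -1.17 ± 0.12 (adjusted p = 1.8e-06). After 12 h the difference was -1.12 ± 0.12 (adjusted p = 1.2e-05). In the knockout tumours the transcript did not fall with the labels. KLHL6 was higher in the tumours labelled KLHL6-KO than in WT (6536 ± 440.4 against 4372 ± 775, 0.59 ± 0.15, adjusted p = 0.013). It was not lower in those labelled DKO (4574 ± 902, 0.061 ± 0.15, adjusted p = 0.83). The call for KLHL6-KO was lost without the library so labelled, replicate 3 (adjusted p = 0.066). The labels do not say how the genes were edited, so the transcript level alone does not show whether a label holds. KLHL6 was higher than in WT in the tumours labelled NOTCH2-KO as well (7433 ± 898, 0.77 ± 0.15, adjusted p = 0.0012). NOTCH2 was lower in the tumours labelled NOTCH2-KO (356 ± 81.7 against 726 ± 267, -0.97 ± 0.21, adjusted p = 0.003), though the ranges overlapped. It was not called in those labelled DKO (568 ± 41.1, -0.28 ± 0.21, adjusted p = 0.43). The groups of that experiment are therefore named as labelled throughout. The 8 B-cell markers were detected in every group of all 3 experiments.

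Before coculture, the 6 MCM genes, whose products sit in 1 ring as 1 copy each, had unequal counts per length. Per kilobase of merged exons (GENCODE 29), the normalised count in WT cells was 1776 ± 78.9 for MCM3, 1197 ± 7.8 for MCM4 and 1108 ± 57.7 for MCM7. It was 714 ± 4.87 for MCM2, 547 ± 32.1 for MCM6 and 348 ± 32.4 for MCM5. The ranges of the libraries did not overlap between MCM3 and the others, or between MCM5 and the others, and MCM4 and MCM7 lay next to each other. Merged exons add up all annotated isoforms, so this order depends on the length chosen. The merged length was 7338 bases for MCM5 and 4118 for MCM6. Before division by length, MCM5 (2411, 2425 and 2829) was above MCM6 (2377, 2269 and 2114) in these WT libraries.

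The first comparison set WT cells after 3 h on the ligand-bearing stroma against WT cells at 0 h. No library came from stroma without DLL1, or from cells kept for the same hours without stroma. Ligand, stroma and time in culture therefore cannot be told apart in any change from 0 h, in either genotype. CCNE2, the second cyclin E, rose most, followed by RRM2, GINS3, POLE, CLSPN and CCNE1, while PRIM1, GINS1, RFC4 and ORC1 fell. Of the 39 genes 17 rose and 8 fell, where 27.2% of all tested genes rose and 27.6% fell, so the share that rose was above the background and the share that fell below it. The median over the 39 was 0.058 and over all tested genes -0.0057. In the group of G1/S regulators and S-phase factors 5 of 7 rose and none fell, at a median of 0.50, and among the 10 licensing and firing factors 4 rose and 3 fell, at a median of -0.036. The summed level of 16 stromal markers was 78.2 to 103 in the WT libraries at 0 h and 232 to 269 at 3 h, and its part in the result was not tested. The marker rows are human genes, and which cells gave their signal was not tested. Sums of stromal and endothelial markers, here and in the tumours, are not read as a share of such cells.

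CCNE2 (ENSG00000175305, chromosome 8, 94879770 to 94896678, on GRCh38) stood at 668, 622 and 602 normalised counts in the WT libraries at 0 h and at 1203, 1202 and 1091 at 3 h. All 3 libraries at 3 h were above all 3 at 0 h, and the change was 0.88 ± 0.066 (adjusted p = 2.2e-13). CCNE1 (ENSG00000105173, chromosome 19, 29811898 to 29824308), the first cyclin E, rose by 0.51 ± 0.075 (adjusted p = 6.1e-07), from 409, 354 and 394 to 568, 564 and 513, again without overlap. RRM2, the regulated subunit of ribonucleotide reductase, which makes the building blocks of DNA, went from 3134, 3179 and 3226 to 4898, 4962 and 5039 (0.64 ± 0.051, adjusted p = 9.0e-13). GINS3, a GINS subunit, changed by 0.62 ± 0.069 (adjusted p = 2.9e-09), and POLE, the catalytic subunit of the leading-strand polymerase, by 0.59 ± 0.066 (adjusted p = 2.0e-09). CLSPN, which couples the replication fork to the checkpoint kinase, rose by 0.54 ± 0.075, SLBP, which binds histone mRNA, by 0.50 ± 0.057 and CDC6 by 0.42 ± 0.058, all 3 with non-overlapping groups. E2F1 and E2F2 themselves were not called at 3 h (0.086 ± 0.065, adjusted p = 0.27 and -0.041 ± 0.057, adjusted p = 0.57).

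The falls at 3 h were led by PRIM1 (ENSG00000198056, chromosome 12, 56731596 to 56752373), the catalytic subunit of the primase. It went from 331, 331 and 345 to 229, 249.9 and 237, every library at 3 h below every library at 0 h (-0.49 ± 0.094, adjusted p = 4.2e-05). GINS1, another GINS subunit, changed by -0.45 ± 0.063 (adjusted p = 2.1e-07), RFC4 of the clamp loader by -0.28 ± 0.054 (adjusted p = 4.1e-05) and ORC1 of the origin recognition complex by -0.24 ± 0.061 (adjusted p = 0.0014). GINS1 and GINS3, whose proteins act in 1 complex, thus moved in opposite directions, and so did RFC4 and RFC3 (0.36 ± 0.066, adjusted p = 2.1e-05).

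By 8 h the rise in WT cells covered most of the genes: 29 of 39 were above 0 h and 3 below, against 28.0% and 28.2% of all tested genes. The median was 0.19, against 0.0014 over all tested genes. All 7 G1/S regulators and S-phase factors, 5 of 6 MCM genes, 8 of 10 licensing and firing factors, 7 of 12 genes of the fork and 2 of 4 of nucleotide supply were called higher. With the libraries of these 2 groups fitted alone, 21 of the 39 were called in place of 32. The stromal markers summed to 299 to 332 at 8 h, above every library at 0 h, and their part in the result was not tested.

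CLSPN (ENSG00000092853, chromosome 1, 35720218 to 35769967) was at 1929, 2164 and 1952 at 8 h, against 1194, 1177 and 1499.8 at 0 h, and the groups did not overlap (0.65 ± 0.075, adjusted p = 7.3e-09). CCNE2 stayed high at 1177, 1131 and 993 (0.80 ± 0.066, adjusted p = 3.2e-12), and CCNE1 at 547, 545 and 471 (0.43 ± 0.075, adjusted p = 9.4e-06). FEN1, the nuclease that trims Okazaki fragments, reached 2883, 2802 and 2751 from 1773, 1803 and 2036 (0.59 ± 0.058, adjusted p = 1.7e-10). MCM5 reached 3729.7, 3834 and 3819.7 from 2411, 2425 and 2829 (0.57 ± 0.056, adjusted p = 1.4e-10). MCM10 (0.57 ± 0.055) and RRM2 (0.55 ± 0.051) were raised to a like degree. E2F2 rose by 0.26 ± 0.057 (adjusted p = 0.00021) with no overlap. E2F1 was called at 0.17 ± 0.065 (adjusted p = 0.027), but its groups overlapped. It was not called when WT 0 h replicate 1 (0.099), WT 0 h replicate 2 (0.064) or WT 8 h replicate 2 (0.27) was left out.

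Only TK1, PRIM1 and MCM6 were called lower at 8 h. TK1 (ENSG00000167900, chromosome 17, 78174075 to 78187233), the thymidine kinase of S phase, stood at 1364, 1319 and 1607 at 0 h and 1051, 1044 and 1048 at 8 h (-0.44 ± 0.076, adjusted p = 7.5e-06), with no overlap. PRIM1 stood at 279, 230.1 and 259 (-0.39 ± 0.094, adjusted p = 0.00066). MCM6 (ENSG00000076003, chromosome 2, 135839626 to 135876426) was at 2377, 2269 and 2114 at 0 h and 2115, 1913 and 1841 at 8 h, and here the ranges overlapped (-0.20 ± 0.06, adjusted p = 0.0045).

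The libraries at 8 h were also compared directly with those at 3 h. In WT cells 15 of the 39 rose (17.5% of all tested genes) and 4 fell (18.8%). The genes that rose were led by GINS1 (0.62 ± 0.063, adjusted p = 9.9e-10), POLA2 of the polymerase alpha complex (0.50 ± 0.089, adjusted p = 3.9e-05), RFC4 (0.47 ± 0.054, adjusted p = 2.0e-08) and ORC1 (0.43 ± 0.061, adjusted p = 1.2e-06). GINS1 went from 559.6, 534 and 577 to 850.2, 879.8 and 848, passing its 0 h values of 708, 782 and 794. The early risers GINS3 (-0.45 ± 0.069, adjusted p = 3.9e-06) and POLE (-0.32 ± 0.066, adjusted p = 0.0002) fell over the same hours. TK1 changed by -0.24 ± 0.076 (adjusted p = 0.011). When WT 3 h replicate 3 was left out TK1 had an adjusted p of 0.072. In the fit over all libraries CCNE2 was not called (-0.085 ± 0.066, adjusted p = 0.33). Nor were CCNE1 (-0.075 ± 0.075, adjusted p = 0.46) and E2F1 (0.084 ± 0.065, adjusted p = 0.33), while E2F2 rose (0.30 ± 0.057, adjusted p = 7.4e-05).

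**Figure D1:**
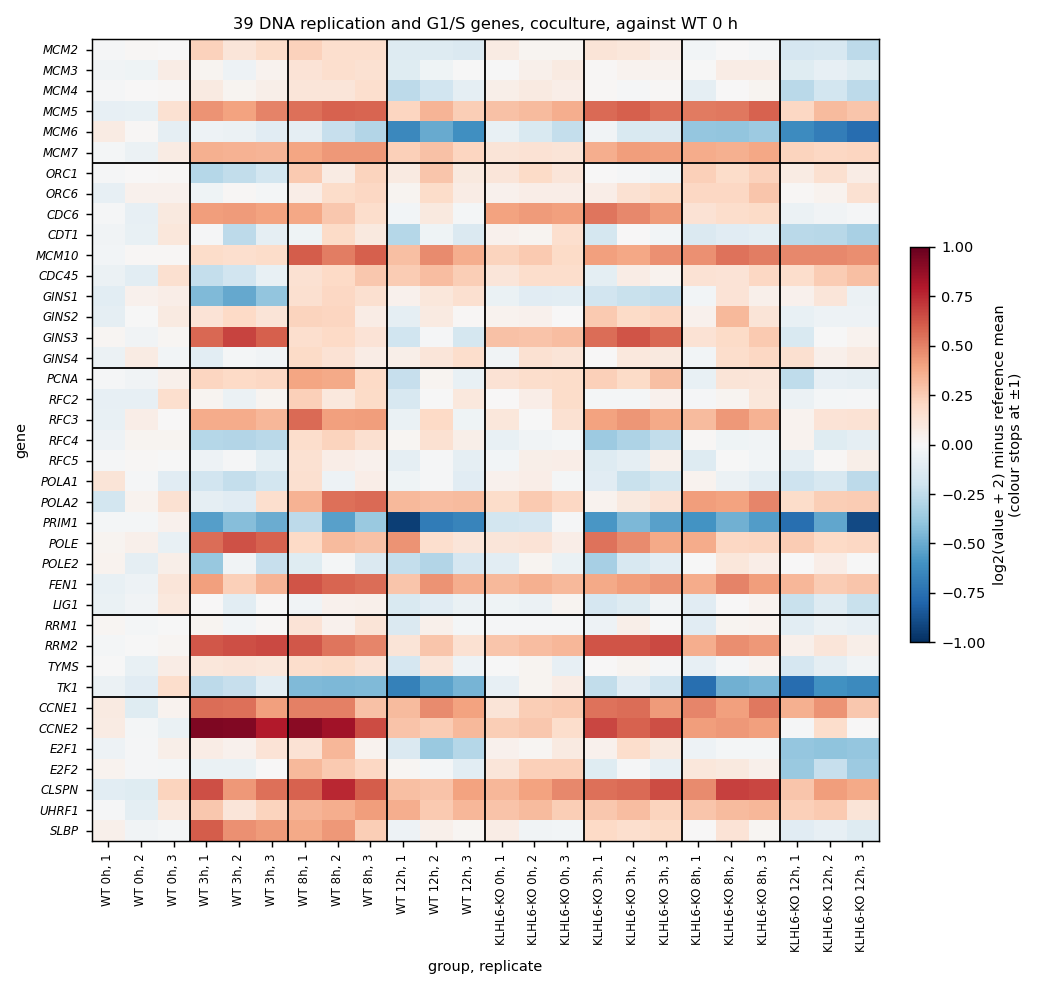
Log2 level of each of the 39 genes (rows, in groups by role) in each coculture library (columns), as the difference from the mean of the 3 WT libraries at 0 h. CCNE2, CLSPN and MCM5 are red at 3 and 8 h and PRIM1, MCM6 and TK1 turn blue by 12 h.

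From 8 to 12 h in WT cells every call among the 39 genes was a fall, and 17 genes were not called. Of the 39 genes 22 fell and none rose at an adjusted p under 0.05, where 12.1% of tested genes fell and 13.0% rose. The median was -0.20, against -0.0036 over all tested genes. All 6 MCM genes fell, from MCM7 (-0.17 ± 0.047, adjusted p = 0.0069) to MCM6 (-0.38 ± 0.06, adjusted p = 1.7e-05), the latter to 1439.9, 1589.9 and 1473. CCNE2 returned to 768, 751 and 792 (-0.51 ± 0.066, adjusted p = 6.7e-07) and E2F1 to 867, 741 and 789 from 1059.7, 1208 and 985 (-0.44 ± 0.065, adjusted p = 7.3e-06), each without overlap. RFC3 of the clamp loader (-0.43 ± 0.066, adjusted p = 9.3e-06) and the clamp itself, PCNA (-0.42 ± 0.063, adjusted p = 9.4e-06), fell by similar amounts. E2F2 changed by -0.30 ± 0.057 (adjusted p = 0.00021), and CCNE1 was not called (-0.035 ± 0.075, adjusted p = 0.77).

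Against 0 h, 12 h therefore left a mixed picture in WT cells, with 13 of 39 higher (27.1% of tested genes) and 7 lower (25.9%). PRIM1 was at 174, 206 and 212 (-0.77 ± 0.094, adjusted p = 2.6e-08), MCM6 at -0.59 ± 0.06 and TK1 at -0.56 ± 0.076 relative to 0 h, the deepest falls. E2F1 was below its starting level (-0.27 ± 0.065, adjusted p = 0.00088), while CCNE1 (0.40 ± 0.075, adjusted p = 3.7e-05), MCM10 (0.38 ± 0.055), FEN1 (0.36 ± 0.058) and CLSPN (0.33 ± 0.075) stayed above theirs. CCNE2 was at 0.29 ± 0.066 (adjusted p = 0.00039) and E2F2 at -0.035 ± 0.057 (adjusted p = 0.63) relative to 0 h.

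One of the WT libraries at 12 h stood apart in its mitochondrial share and its summed stromal markers. The share of reads on mitochondrial genes was 23.2% in WT 12 h replicate 1 and 10.4 and 14.8% in the others, against 8.90 to 13.5% at 8 h and 9.22 to 10.1% at 0 h. The stromal markers summed to 716 in that library and to 239 and 261 in the others, below the 299 to 332 at 8 h, with THY1 at 0 in all WT libraries at 8 and 12 h. Their part in the 12 h results was not tested. Without WT 12 h replicate 1 the count of genes called between 12 and 8 h was 18 in place of 22. In bulk RNA, fewer cells in S phase and less of each transcript per cell cannot be told apart.

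In KLHL6-KO cells the coculture was followed over the same hours. After 3 h 12 of 39 rose (19.5% of tested genes) and 6 fell (19.6%), with CCNE2 (0.40 ± 0.066, adjusted p = 7.1e-06), POLE (0.35 ± 0.066, adjusted p = 4.4e-05), RRM2 (0.33 ± 0.051, adjusted p = 2.3e-06) and RFC3 (0.32 ± 0.066, adjusted p = 0.0002) leading. The stromal markers summed to 45.0 to 57.7 in these cells at 0 h, 195 to 297 at 3 h and 328 to 391 at 8 h, and their part in the results was not tested. CCNE2 went from 749, 758 and 711 to 1002, 948 and 985, with no overlap. PRIM1 (-0.41 ± 0.094, adjusted p = 0.00076), RFC4 (-0.26 ± 0.054, adjusted p = 0.0002) and POLA1 (-0.20 ± 0.061, adjusted p = 0.0083) fell, as did E2F2, from 1199.6, 1304 and 1298 to 1016, 1091 and 1043 (-0.27 ± 0.057, adjusted p = 0.00027). CCNE1 rose by 0.30 ± 0.075 (adjusted p = 0.0017) and E2F1 was not called (0.055 ± 0.065, adjusted p = 0.54).

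At 8 h 8 of 39 were higher than at 0 h in KLHL6-KO cells (19.2% of tested genes) and 5 lower (18.6%). This share is near the background, and the median was 0.022. RFC3 (0.28 ± 0.066, adjusted p = 0.00097), MCM10 (0.28 ± 0.055), CCNE1 (0.26 ± 0.075) and MCM7 (0.24 ± 0.047) were the largest rises. TK1 (-0.57 ± 0.076, adjusted p = 2.5e-07) and PRIM1 (-0.43 ± 0.094, adjusted p = 0.00048) fell, and CDC6 fell to 1325, 1354 and 1365 from 1579, 1612 and 1587 (-0.24 ± 0.058, adjusted p = 0.0011). CCNE2 was called at 0.19 ± 0.066 (adjusted p = 0.02). Leaving out replicate 3 at 0 h gave it an adjusted p of 0.087, and leaving out replicate 2 at 8 h one of 0.057. Neither E2F1 (-0.081 ± 0.065, adjusted p = 0.35) nor E2F2 (-0.11 ± 0.057, adjusted p = 0.13) was called.

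From 3 to 8 h in KLHL6-KO cells, 6 of 39 rose (13.1% of tested genes) and 8 fell (13.4%), in all 9 rather than 14 without KLHL6-KO 3 h replicate 1. POLA2 (0.34 ± 0.089), RFC4 (0.28 ± 0.054) and GINS1 (0.27 ± 0.063) rose and GINS3 (-0.39 ± 0.069), TK1 (-0.38 ± 0.076), CDC6 (-0.31 ± 0.058) and MCM6 (-0.27 ± 0.06) fell. The changes of CCNE1 (-0.035 ± 0.075, adjusted p = 0.78), CCNE2 (-0.21 ± 0.066, adjusted p = 0.016), E2F1 (-0.14 ± 0.065, adjusted p = 0.13) and E2F2 (0.16 ± 0.057, adjusted p = 0.036) lay between these. From 8 to 12 h 16 fell (6.0%) and none rose (5.87%), all 6 MCM genes among them. That count was 8 without KLHL6-KO 8 h replicate 2, 10 without KLHL6-KO 8 h replicate 3 and 8 without KLHL6-KO 12 h replicate 1. E2F2 fell furthest, to 854, 939.6 and 856 from 1196, 1183 and 1141 (-0.41 ± 0.057, adjusted p = 6.8e-06), followed by CCNE2 (-0.37 ± 0.066, adjusted p = 0.00021), E2F1 (-0.36 ± 0.065, adjusted p = 0.00023) and RRM2 (-0.34 ± 0.051, adjusted p = 1.5e-05), with CCNE1 at -0.12 ± 0.075 (adjusted p = 0.35).

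After 12 h the KLHL6-KO cells were below their own 0 h level for 16 of the 39 (20% of tested genes fell) and above it only for MCM10 (0.25 ± 0.055, adjusted p = 0.00043, 20.6% of tested genes rose). TK1 was at 839, 936 and 916 against 1347, 1448 and 1499.9 (-0.67 ± 0.076, adjusted p = 7.9e-09), with no overlap. PRIM1 (-0.60 ± 0.094), MCM6 (-0.54 ± 0.06), E2F2 (-0.52 ± 0.057) and E2F1 (-0.44 ± 0.065) followed, each with an adjusted p of at most 3.6e-06. CCNE2 stood at -0.18 ± 0.066 (adjusted p = 0.031), and CCNE1 was not called (0.15 ± 0.075, adjusted p = 0.12). The mitochondrial share in these libraries was 12.8 to 17.8% against 9.76 to 10.4% at 0 h, and the sum of stromal markers 277 to 348 against 45.0 to 57.7. Their part in the result was not tested.

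**Figure D2:**
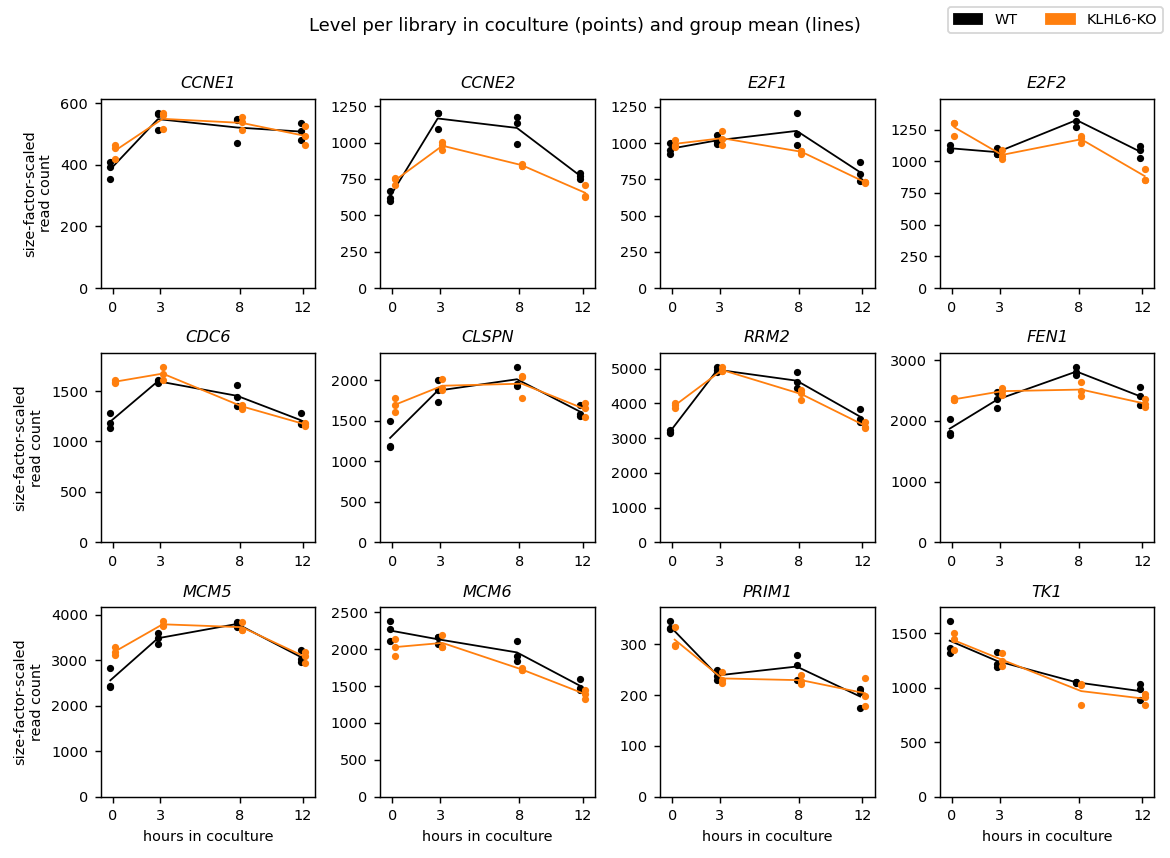
Normalised counts of 12 genes against hours in coculture in WT (black) and KLHL6-KO (orange) libraries, points for single libraries and lines for group means, with the vertical axis from 0. CDC6, CLSPN, RRM2, FEN1 and MCM5 start higher in KLHL6-KO cells and the WT lines meet or pass them by 8 h.

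The genotypes were then compared at each time. Before coculture 12 of 39 were higher in KLHL6-KO than in WT cells and none was lower, against 13.7% and 12.5% of all tested genes. CDC6 (ENSG00000094804, chromosome 17, 40287633 to 40304657), the loader of the MCM ring, was at 1579, 1612 and 1587 in KLHL6-KO and 1186, 1129.5 and 1279 in WT libraries (0.41 ± 0.058, adjusted p = 2.6e-06). CLSPN was at 1615, 1695 and 1788 against 1194, 1177 and 1499.8 (0.40 ± 0.075, adjusted p = 0.00015), FEN1 at 2341, 2384 and 2340.3 against 1773, 1803 and 2036 (0.33 ± 0.058, adjusted p = 5.7e-05) and MCM5 at 3119.6, 3171 and 3279.6 against 2411, 2425 and 2829 (0.32 ± 0.056, adjusted p = 5.4e-05). In each of these 4 genes all KLHL6-KO libraries were above all WT libraries. CCNE2 (0.23 ± 0.066, adjusted p = 0.0094) was higher too, and E2F2 (0.20 ± 0.057, adjusted p = 0.0097), which was not called when KLHL6-KO replicate 2 was left out (0.053). CCNE1 (0.21 ± 0.075, adjusted p = 0.035) was no longer called when WT replicate 2 (0.21), or the KLHL6-KO replicates 2 (0.11) or 3 (0.13), were left out. E2F1 was not called (0.051 ± 0.065, adjusted p = 0.61).

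At 3 h 3 genes were higher in KLHL6-KO cells (3.82% of tested genes) and 2 lower (4.0%), few genes in either direction. SLBP was lower, at 2689, 2622 and 2665 against 3564, 3203 and 3149 (-0.31 ± 0.057, adjusted p = 0.00033), and MCM10 higher (0.24 ± 0.055, adjusted p = 0.0047). CCNE2 was lower (-0.25 ± 0.066, adjusted p = 0.013), though not when WT replicate 1 (0.075), WT replicate 2 (0.078) or KLHL6-KO replicate 2 (0.075) was left out. The count of 5 was 3 without replicate 1 and 2 without replicate 2 of either genotype at 3 h, and 3 with no filter on low values. CCNE1 (0.0026 ± 0.075), E2F1 (0.02 ± 0.065) and E2F2 (-0.03 ± 0.057) were not called.

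At 8 h the direction was the other way: 5 genes were lower in KLHL6-KO cells (2.32% of tested genes) and none higher (2.02%). CCNE2 was at 841, 854 and 839 in KLHL6-KO and 1177, 1131 and 993 in WT libraries, with no overlap (-0.38 ± 0.066, adjusted p = 0.00032). SLBP (-0.30 ± 0.057, adjusted p = 0.00086) and MCM2 (-0.21 ± 0.048, adjusted p = 0.0067) were lower in every left-out fit. PCNA (-0.26 ± 0.063, adjusted p = 0.0097) was not called when WT replicates 1 (0.069) or 2 (0.06) or KLHL6-KO replicate 1 (0.12) were left out. RFC4 (-0.21 ± 0.054, adjusted p = 0.019) was not called without WT 8 h replicate 2 (0.08) or KLHL6-KO 8 h replicates 2 or 3 (0.067 and 0.08), and the count of 5 was 3 without WT 8 h replicate 2 or with these 2 groups fitted alone. With a replicate block in the fit the count was 10. E2F2 (-0.17 ± 0.057, adjusted p = 0.078), E2F1 (-0.20 ± 0.065, adjusted p = 0.075) and CCNE1 (0.043 ± 0.075, adjusted p = 0.84) were not called.

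At 12 h 2 genes were lower (2.00% of tested genes) and none higher (1.40%). E2F2 was at 854, 939.6 and 856 in KLHL6-KO against 1119, 1089 and 1023 in WT libraries, with no overlap (-0.29 ± 0.057, adjusted p = 0.0017). CCNE2 (-0.24 ± 0.066, adjusted p = 0.035) was not called, leaving 1 gene, when WT replicate 1 (0.083) or 3 (0.15) or KLHL6-KO replicate 1 (0.16) or 3 (0.18) was left out, and the count was also 1 with no filter or with these 2 groups fitted alone. CCNE1 (-0.041 ± 0.075) and E2F1 (-0.13 ± 0.065) were not called.

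Whether the time course itself differed by genotype was tested with 1 joint test over the 3 later times. It called 12 of 39 genes, 30.8% of them, where it called 12.4% of all tested genes. On average over the 3 times, the KLHL6-KO log2 change since 0 h was below the WT change in 11 of the 12, with GINS1 the exception. For CCNE2 the KLHL6-KO change minus the WT change was -0.48 ± 0.093 at 3 h, -0.61 ± 0.093 at 8 h and -0.46 ± 0.093 at 12 h (joint adjusted p = 0.00011). For CDC6 the difference was -0.35 ± 0.081, -0.52 ± 0.081 and -0.46 ± 0.081 (joint adjusted p = 0.00012), and for RRM2 -0.31 ± 0.072, -0.43 ± 0.072 and -0.41 ± 0.072 (0.00016). FEN1 (0.00031), E2F2 (0.00045), UHRF1, which helps to copy DNA methylation marks (0.0028), MCM5 (0.0066) and PCNA (0.0073) were called as well. So were SLBP (0.012) and MCM10 (0.017), MCM10 not without KLHL6-KO 8 h replicate 1 (0.053). CLSPN (0.013) was not called when WT 0 h replicate 1 (0.063), WT 0 h replicate 2 (0.081) or KLHL6-KO 0 h replicate 3 (0.06) was left out, nor GINS1 (0.013) without WT 3 h replicate 2 (0.059). Each of these differences includes the 0 h libraries, where the genotypes already differed, so they share those libraries with the comparison at 0 h. CCNE1 (0.29) and E2F1 (0.14) were not called.

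Genes outside the 39 give the setting. Of 37 other replication genes, 18 rose and 4 fell in WT cells at 8 h against 0 h (28.0% and 28.2% of all tested genes), at a median of 0.15, led by the polymerase epsilon subunits POLE3 (0.85 ± 0.066, adjusted p = 9.7e-13) and POLE4 (0.70 ± 0.13, adjusted p = 3.4e-05). RRM2B, the ribonucleotide reductase subunit induced by p53, fell (-0.34 ± 0.086, adjusted p = 0.0013). Of 27 tested regulators of G1 and G1/S outside the 39, 13 rose and 4 fell. MYC, a driver of cell growth, rose (1.43 ± 0.11, adjusted p = 6.3e-13), E2F3 rose (0.73 ± 0.064, adjusted p = 1.1e-11), and the CDK inhibitors CDKN2D (-1.28 ± 0.16, adjusted p = 4.0e-08) and CDKN1B (-0.55 ± 0.068, adjusted p = 1.8e-08) fell. E2F4 stood at 650 ± 23.2 in WT cells at 0 h and at 1214 ± 57.2 at 8 h, with no overlap. Of 27 genes of G2 and mitosis 5 rose and 10 fell at 8 h, with the S/G2 cyclin CCNA2 up (0.27 ± 0.064, adjusted p = 0.00045) and the spindle checkpoint kinase BUB1 down (-0.41 ± 0.072, adjusted p = 9.7e-06). From 8 to 12 h 14 of the 37 other replication genes fell and 1 rose, and of the 27 G2 and mitosis genes 5 fell and 3 rose, where 12.1% of all tested genes fell and 13.0% rose. Before coculture the KLHL6-KO cells had 8 of the 37 higher and 2 lower than WT, and 8 of the 27 G2 and mitosis genes higher and none lower, against 13.7% and 12.5% of all tested genes, MKI67 among them (0.26 ± 0.077, adjusted p = 0.013, not called without WT 0 h replicate 3 or KLHL6-KO 0 h replicate 2).

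E2F factors bind a motif that reads TTGGCGC or TTCGCGC or TTGCCGC or TTCCCGC in its commonest forms, and NF-Y binds CCAAT. RefSeq promoter windows of 300 bases, from 250 before to 50 after a start, were at hand for 35 of the 39 genes, in 44 windows. At least 1 of the 4 E2F forms, on either strand, lay in 31 of the 44 windows (70.5%), against 13.0% of 35116 windows of all genes and 16.1% of 22199 windows of protein-coding genes. CCAAT lay in 27 of the 44 (61.4%), against 34.6% of all windows. Counted by gene, 29 of 35 had an E2F form in at least 1 window and 18 had both motifs. FEN1, CCNE1, MCM10, CDC45, ORC6 and SLBP had no E2F form in these windows, and that says nothing more than that these letters were absent there. A match is a description of the sequence, not a bound site. The windows below belong to genes whose values carry the results: CLSPN and CDC6 were called higher in WT cells at 3 and 8 h (CDC6 was called lower in KLHL6-KO cells at 8 and 12 h), MCM6, TK1 and PRIM1 were called lower at 12 h in both genotypes, and POLA1 was called higher than WT in all 3 labelled knockouts. They are written 5′ to 3′ along the gene from RefSeq on GRCh38.p14, with E2F forms and CCAAT (either strand) in capitals, and for TK1 the window with more matches of 2 is shown.
CLSPN: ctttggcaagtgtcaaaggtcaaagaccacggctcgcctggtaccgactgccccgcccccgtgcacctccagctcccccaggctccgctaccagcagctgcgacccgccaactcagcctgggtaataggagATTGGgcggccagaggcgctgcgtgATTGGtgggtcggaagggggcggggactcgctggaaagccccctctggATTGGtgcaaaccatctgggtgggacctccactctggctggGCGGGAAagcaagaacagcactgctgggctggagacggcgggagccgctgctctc
CDC6: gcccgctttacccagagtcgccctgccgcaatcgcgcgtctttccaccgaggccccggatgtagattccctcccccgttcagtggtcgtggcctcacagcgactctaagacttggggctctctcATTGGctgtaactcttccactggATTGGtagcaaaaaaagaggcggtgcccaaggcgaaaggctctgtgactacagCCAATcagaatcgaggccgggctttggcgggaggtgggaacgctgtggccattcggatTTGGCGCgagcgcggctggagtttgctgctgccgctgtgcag
MCM6: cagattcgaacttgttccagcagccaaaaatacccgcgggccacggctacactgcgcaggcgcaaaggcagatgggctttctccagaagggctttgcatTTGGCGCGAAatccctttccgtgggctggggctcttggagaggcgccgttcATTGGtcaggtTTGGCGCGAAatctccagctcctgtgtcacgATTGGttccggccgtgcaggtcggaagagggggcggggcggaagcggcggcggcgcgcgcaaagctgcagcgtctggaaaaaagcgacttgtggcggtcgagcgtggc
TK1: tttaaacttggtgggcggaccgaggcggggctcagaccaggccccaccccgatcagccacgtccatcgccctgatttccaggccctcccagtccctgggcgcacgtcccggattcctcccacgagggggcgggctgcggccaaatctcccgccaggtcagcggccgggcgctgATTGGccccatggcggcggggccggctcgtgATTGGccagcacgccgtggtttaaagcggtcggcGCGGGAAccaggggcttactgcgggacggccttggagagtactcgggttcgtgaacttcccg
PRIM1: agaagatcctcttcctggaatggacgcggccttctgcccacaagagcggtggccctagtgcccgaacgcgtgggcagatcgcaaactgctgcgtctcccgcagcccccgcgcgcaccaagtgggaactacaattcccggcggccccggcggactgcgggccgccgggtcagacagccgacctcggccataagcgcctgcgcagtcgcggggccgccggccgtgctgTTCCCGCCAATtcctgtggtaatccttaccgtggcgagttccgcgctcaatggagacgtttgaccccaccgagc
POLA1: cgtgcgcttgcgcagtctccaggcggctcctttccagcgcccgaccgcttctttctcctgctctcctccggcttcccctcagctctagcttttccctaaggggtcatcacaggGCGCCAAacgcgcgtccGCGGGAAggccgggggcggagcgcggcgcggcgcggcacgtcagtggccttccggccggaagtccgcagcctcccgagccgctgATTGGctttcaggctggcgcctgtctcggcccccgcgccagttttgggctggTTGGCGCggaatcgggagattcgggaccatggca
The windows lie at chr1:35769929-35770228 (minus strand) for CLSPN, chr17:40287629-40287928 (plus) for CDC6, chr2:135876394-135876693 (minus) for MCM6, chr17:78187003-78187302 (minus) for TK1, chr12:56752274-56752573 (minus) for PRIM1 and chrX:24693668-24693967 (plus) for POLA1. MCM6 held 4 E2F matches, an overlapping pair on both strands at 2 places, and 2 CCAAT boxes. CLSPN and CDC6 held 1 E2F match and 3 CCAAT boxes each, and in PRIM1 the E2F match and the CCAAT box overlapped. Genes called higher in WT cells at 8 h and genes called lower there thus both carried the motifs.

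The knockout tumours asked what loss of KLHL6, of NOTCH2 or of both did to lymphomas under chemotherapy. In the tumours labelled KLHL6-KO 10 of 39 genes were higher than in WT and none lower, against 8.44% and 9.02% of all tested genes. The KLHL6 transcript itself was higher in them as well, as given above. The 10 were spread over the fork (5 of 12), licensing and firing (3 of 10), nucleotide supply (1 of 4) and UHRF1, with none of the 6 MCM genes called. The count was 17 without WT replicate 1, 5 without the library labelled KLHL6-KO replicate 1 and 4 without replicate 3, and it was 5 with these 2 groups fitted alone. Summed T and NK cell markers (7 listed, 2 found) were 42.2 to 47.2 in the tumours labelled KLHL6-KO and 103 to 121 in WT, and their part in the result was not tested. The mice lack T and NK cells, so these sums, here and in the other tumours, are not read as a share of such cells.

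POLA1 (ENSG00000101868, chromosome X, 24693919 to 24996986), the catalytic subunit of polymerase alpha, was at 1259.6, 1091 and 1067 in WT tumours and 1717, 1631 and 1847 in those labelled KLHL6-KO, with no overlap (0.61 ± 0.083, adjusted p = 0.00022). TK1 was at 2223, 1898 and 1785 and 3298, 2567 and 3155 (0.61 ± 0.12, adjusted p = 0.0032), and FEN1 at 1718, 1982 and 1945 and 2723, 2432 and 2797 (0.49 ± 0.085, adjusted p = 0.0011), each higher in all 3 libraries labelled KLHL6-KO than in every WT library. GINS4 (0.41 ± 0.092, adjusted p = 0.0065), GINS1 (0.44 ± 0.12, adjusted p = 0.018) and MCM10 (0.37 ± 0.092, adjusted p = 0.013) were called with them. GINS1 was lost without the libraries labelled KLHL6-KO replicate 1 (0.054) or 3 (0.074), and MCM10 without replicate 3 (0.056). POLA2 (0.51 ± 0.14, adjusted p = 0.022) was not called without the libraries labelled KLHL6-KO replicate 1 (0.08) or replicate 3 (0.13). CCNE1 (0.16 ± 0.093), CCNE2 (-0.017 ± 0.098), E2F1 (-0.11 ± 0.15) and E2F2 (0.063 ± 0.17) were not called. Among genes outside the 39, MYC (0.71 ± 0.19, adjusted p = 0.017) and the G1 kinase CDK4 (0.66 ± 0.10, adjusted p = 0.00064) were higher and CDKN1B was lower (-0.61 ± 0.078, adjusted p = 9.9e-05). MYC was not called without the libraries labelled KLHL6-KO replicate 2 (0.075) or 3 (0.06). Of 27 genes of G2 and mitosis none was higher and 4 were lower, against 8.44% and 9.02% of all tested genes.

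In the tumours labelled NOTCH2-KO 6 of 39 genes were higher than in WT (16.2% of tested genes) and 5 lower (14.5%), near the background in both directions. The count of 11 was 5 without the library labelled NOTCH2-KO replicate 1 and 5 without replicate 3, and 7 with these 2 groups fitted alone. Summed B-cell markers were 55362 to 66099 in the tumours labelled NOTCH2-KO and 38486 to 48924 in WT, and T and NK cell markers 84.3 to 89.6 against 103 to 121. Their part in the result was not tested. POLA1 was again the largest, at 1927, 1894 and 1864 (0.74 ± 0.083, adjusted p = 1.4e-05), with POLA2 at 241, 224 and 217 against 131, 167 and 157 (0.59 ± 0.14, adjusted p = 0.0057). FEN1 (0.40 ± 0.085, adjusted p = 0.0024) and LIG1, the ligase that seals Okazaki fragments (0.39 ± 0.094, adjusted p = 0.0049), were higher. RFC4 was lower, at 1591, 1611 and 1636 against 2334, 1940.5 and 1926, with no overlap (-0.35 ± 0.09, adjusted p = 0.0077). ORC1 (-0.41 ± 0.12, adjusted p = 0.018) was not called without the libraries labelled NOTCH2-KO replicate 1 (0.086) or 3 (0.064). MCM2 (-0.37 ± 0.12, adjusted p = 0.027) was not called without WT replicate 1 (0.063) or the same 2 labelled NOTCH2-KO libraries (0.074 and 0.097), and CLSPN (-0.30 ± 0.10, adjusted p = 0.035) was lost without WT replicate 3 (0.065) or those 2 (0.066 and 0.16). E2F1 (-0.36 ± 0.15, adjusted p = 0.077), E2F2 (0.13 ± 0.17), CCNE1 (0.24 ± 0.093) and CCNE2 (0.15 ± 0.098) were not called.

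In the tumours labelled DKO 3 of 39 were higher than in WT (5.50% of tested genes) and none lower (3.86%). The count was 8 without WT replicate 1 and 1 without the library labelled DKO replicate 3, the shallowest of the experiment, and with these 2 groups fitted alone it was 0. Summed T and NK cell markers were 157 to 199.8 in the tumours labelled DKO and 103 to 121 in WT, and their part in the result was not tested. POLA1 was at 1589, 1576 and 1499.8 (0.45 ± 0.083, adjusted p = 0.0042), above all WT tumours. FEN1 (0.35 ± 0.085, adjusted p = 0.019) was not called without DKO replicate 3 (0.078). LIG1 (0.32 ± 0.094, adjusted p = 0.045) was not called without WT replicate 2 (0.12) or 3 (0.089) or DKO replicate 1 (0.083) or 3 (0.18). CCNE1, CCNE2, E2F1 and E2F2 were not called (0.19 ± 0.093, 0.11 ± 0.098, -0.14 ± 0.15 and 0.15 ± 0.17). These 3 comparisons share the WT libraries, and WT replicate 1 stood above the other 2 for most of the genes: its median over the 39 was 0.15 above the WT mean, against -0.046 and -0.11 for replicates 2 and 3.

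The labelled knockouts were also compared with each other. Against those labelled NOTCH2-KO, the tumours labelled KLHL6-KO had 10 of 39 higher (13.8% of tested genes) and none lower (14.7%). The count was 6 without KLHL6-KO replicate 1 or without NOTCH2-KO replicate 1, as labelled, and 19 with these 2 groups fitted alone. GINS4 was at 662, 629.6 and 710.3 in the former and 408, 408 and 436 in the latter (0.67 ± 0.092, adjusted p = 4.4e-05). RFC4 (0.65 ± 0.09, adjusted p = 5.1e-05), CLSPN (0.57 ± 0.10, adjusted p = 0.00051), MCM10 (0.53 ± 0.092, adjusted p = 0.00039) and MCM2 (0.49 ± 0.12, adjusted p = 0.0056) were higher too, and in all 5 genes the groups did not overlap. Of the 27 genes of G2 and mitosis 1 was higher and 10 were lower in the same comparison, CCNA2 among them (-0.90 ± 0.14, adjusted p = 0.00014). CCNE1 (-0.083 ± 0.093), CCNE2 (-0.17 ± 0.098), E2F1 (0.26 ± 0.15) and E2F2 (-0.067 ± 0.17) were not called.

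The tumours labelled DKO had no gene higher (6.25% of tested genes) and 3 lower (4.51%) than those labelled KLHL6-KO. RFC4 was at 1873, 1684 and 1896 against 2673, 2382 and 2526 (-0.48 ± 0.09, adjusted p = 0.0025). MCM10 (-0.37 ± 0.092, adjusted p = 0.016) was not called without KLHL6-KO replicate 3 (0.062) or DKO replicate 2 (0.061), CLSPN (-0.35 ± 0.10, adjusted p = 0.038) was not called when any 1 of 5 libraries was left out, all but DKO replicate 1 (0.062 to 0.15), and the count fell to 1 without KLHL6-KO replicate 3 or DKO replicate 2, as labelled. Against those labelled NOTCH2-KO, 1 gene was higher (3.52%) and 1 lower (3.29%) in DKO, near the background. These were GINS4 (0.41 ± 0.092, adjusted p = 0.013) and POLA1 (-0.29 ± 0.083, with an adjusted p that rounds to 0.05), and the count ran from 0 to 4 over left-out libraries: 0 without NOTCH2-KO replicate 1 or 2 or DKO replicate 1 or 3, 1 without NOTCH2-KO replicate 3 and 4 without DKO replicate 2. It was 1 with edgeR or a pseudocount of 8.

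The test of whether the labelled losses added up on the log2 scale called 3 of 39 genes, all with less change in DKO than the sum of the single effects (5.31% of tested genes), and none the other way (5.53%). They were POLA1 (-0.89 ± 0.12, adjusted p = 0.0002), POLA2 (-0.69 ± 0.20, adjusted p = 0.039) and FEN1 (-0.54 ± 0.12, adjusted p = 0.0093). POLA2 was not called when any 1 of 8 libraries was left out, all those of the labelled knockouts except KLHL6-KO replicate 2 (adjusted p from 0.051 to 0.11). The count was 7 without WT replicate 1. CCNE1 (-0.22 ± 0.13), CCNE2 (-0.028 ± 0.14), E2F1 (0.33 ± 0.21) and E2F2 (-0.045 ± 0.23) were not called. The sum of the stromal markers was 288 to 315 in WT tumours, 312 to 475 in those labelled KLHL6-KO, 526 to 605 in NOTCH2-KO and 265 to 368 in DKO. Its part in these results was not tested.

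**Figure D3:**
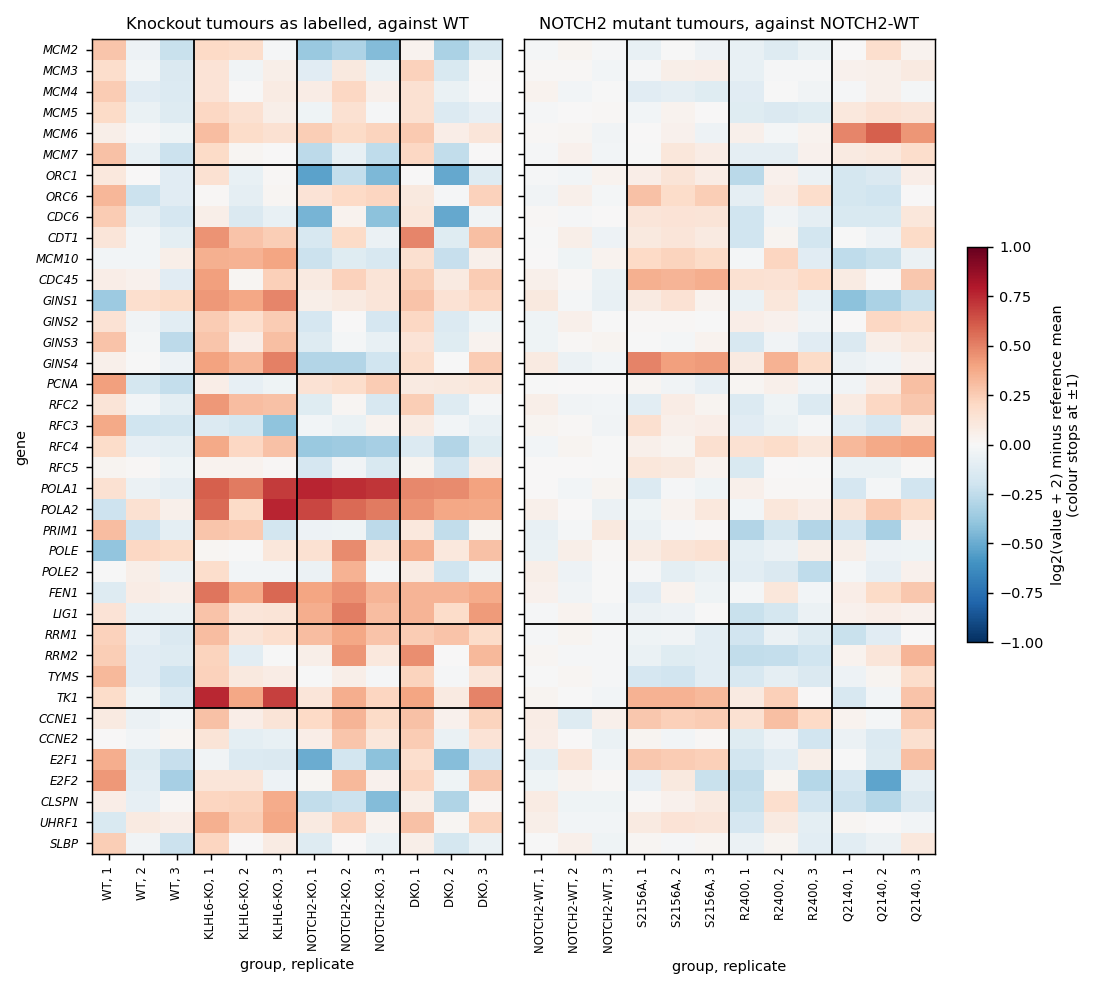
Log2 level of the 39 genes (rows, in groups by role) in each tumour library (columns), as the difference from the mean of WT (left, knockout tumours as labelled) or NOTCH2-WT (right, mutant tumours). POLA1 is red in all 9 labelled knockouts and MCM6 in the 3 Q2140 tumours, and WT replicate 1 is redder than the other WT libraries.

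The mutant tumours compared lymphomas that express NOTCH2 variants, whose stops R2400* and Q2140* remove some or all of the tail of the receptor that limits its lifetime. The groups carried different levels of NOTCH2 transcript: 15858 ± 567 in NOTCH2(WT), 16649.9 ± 1050.4 in S2156A, 26466 ± 2748 in R2400* and 59619 ± 4181 in Q2140*. The 3 comparisons with NOTCH2(WT) share its libraries.

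In S2156A tumours 6 of 39 genes were higher than in NOTCH2(WT) (7.14% of tested genes) and none lower (8.06%), 4 of them licensing and firing factors. The count was 3 without S2156A replicate 1 and 13 with these 2 groups fitted alone. Summed T and NK cell markers were 54.9 to 72.6 in S2156A and 136 to 156 in NOTCH2(WT) tumours, and endothelial markers 59.96 to 68.6 against 104 to 127. Their part in the result was not tested. GINS4 was at 516, 487 and 492 against 390.0, 351 and 359 (0.44 ± 0.078, adjusted p = 0.00015). CDC45, which joins the MCM ring and GINS in the helicase, was at 1341, 1328 and 1353 against 1087, 1059.8 and 1005 (0.35 ± 0.061, adjusted p = 0.00014). Neither gene's groups overlapped. TK1 (0.34 ± 0.082, adjusted p = 0.0082) and ORC6 (0.24 ± 0.064, adjusted p = 0.0098) were higher too, ORC6 not without NOTCH2(WT) replicate 1 (0.055) or S2156A replicate 1 (0.063). CCNE1 (0.25 ± 0.073, adjusted p = 0.017) was not called without NOTCH2(WT) replicate 2 (0.12) or S2156A replicate 1 (0.066) or 3 (0.063). CCNE2 (0.0019 ± 0.07), E2F1 (0.25 ± 0.09, adjusted p = 0.073) and E2F2 (-0.069 ± 0.13) were not called. Of the 27 G2 and mitosis genes 6 were lower and none higher, CCNA2 the furthest (-0.70 ± 0.06, adjusted p = 4.2e-09).

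In R2400* tumours 1 gene was lower (4.32% of tested genes) and none higher (3.73%). It was RRM2, at 7515, 7562 and 7774 against 9052, 8864 and 8875 (-0.23 ± 0.054, adjusted p = 0.007), lower in all 3 libraries. The count was 2 without R2400* replicate 2 and 3 without R2400* replicate 3, and 2 with edgeR, with TMM scaling or with these 2 groups fitted alone. CCNE1 (0.22 ± 0.073, adjusted p = 0.064), CCNE2 (-0.12 ± 0.07), E2F1 (-0.076 ± 0.09) and E2F2 (-0.17 ± 0.13) were not called.

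In Q2140* tumours 6 of 39 were higher (9.72% of tested genes) and 1 lower (10.8%). MCM6 was at 4518, 4870.4 and 4368 against 3253, 3266 and 3152 (0.51 ± 0.049, adjusted p = 4.7e-08), and the other 5 MCM genes differed by 0.0056 to 0.13. MCM5, at the top of that range, was called (0.13 ± 0.042, adjusted p = 0.036), but not without any 1 NOTCH2(WT) library or Q2140* replicate 2 (adjusted p from 0.076 to 0.12). RFC4 was at 3663, 3793 and 3869 against 2872, 2982 and 2907 (0.37 ± 0.048, adjusted p = 3.5e-06). GINS1 was lower, at 557, 594 and 636 against 793, 733 and 704 (-0.32 ± 0.07, adjusted p = 0.0017). None of these 3 genes' groups overlapped. RFC2 (0.18 ± 0.061, adjusted p = 0.032) and FEN1 (0.17 ± 0.056, adjusted p = 0.028) were called but lost in left-out fits, RFC2 without NOTCH2(WT) replicate 2 (0.1) or 3 (0.11) or Q2140* replicate 2 (0.084) or 3 (0.1), and FEN1 without those same libraries or NOTCH2(WT) replicate 1 (0.05 to 0.1). The count was 4 without NOTCH2(WT) replicate 1 and 3 without replicate 2 or 3. CCNE1 (0.092 ± 0.073), CCNE2 (-0.014 ± 0.07), E2F1 (0.053 ± 0.09) and E2F2 (-0.26 ± 0.13) were not called. Summed T and NK cell markers (7 listed, 6 found, 3 above the filter) were 281 to 354 in Q2140* and 136 to 156 in NOTCH2(WT) tumours, and summed B-cell markers 76500 to 81633 against 60854 to 63374. Their part was not tested.

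S2156A against Q2140* gave the most calls among these tumours, with 9 of 39 higher (15.2% of tested genes) and 8 lower (15.4%), and 11 in place of 17 without Q2140* replicate 2. Licensing and firing factors were on the S2156A side, 6 of 10 and none the other way: GINS4 (0.46 ± 0.078, adjusted p = 5.1e-05), GINS1 (0.41 ± 0.07, adjusted p = 5.8e-05), MCM10 (0.38 ± 0.07, adjusted p = 0.00013) and ORC6 (0.36 ± 0.064, adjusted p = 7.9e-05) among them. MCM6 (-0.51 ± 0.049, adjusted p = 1.3e-08), RFC4 (-0.29 ± 0.048, adjusted p = 4.0e-05), RRM2 (-0.26 ± 0.054, adjusted p = 0.00051) and FEN1 (-0.21 ± 0.056, adjusted p = 0.0049) were on the Q2140* side. Q2140* against R2400*, an early against a late stop, gave 9 higher (9.48% of tested genes) and 4 lower (9.46%), in all 6 rather than 13 with these 2 groups fitted alone. MCM6 (0.49 ± 0.049, adjusted p = 1.7e-07), RRM2 (0.39 ± 0.054, adjusted p = 1.2e-05), RFC2 (0.29 ± 0.061, adjusted p = 0.0013) and MCM5 (0.25 ± 0.042, adjusted p = 0.00011) were higher in Q2140*, and GINS1 was lower (-0.31 ± 0.07, adjusted p = 0.0026). In both comparisons CCNE1 (0.16 ± 0.073 and -0.13 ± 0.073), CCNE2 (0.016 ± 0.07 and 0.11 ± 0.07), E2F1 (0.20 ± 0.09 and 0.13 ± 0.09) and E2F2 (0.19 ± 0.13 and -0.092 ± 0.13) were not called.

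Between S2156A and R2400* 3 genes were higher in S2156A (1.93% of tested genes) and none lower (2.83%). E2F1 was at 2114, 2096 and 2066 against 1543, 1635 and 1829 (0.33 ± 0.09, adjusted p = 0.048), with CDC6 (0.24 ± 0.059, adjusted p = 0.019) and CDT1 (0.22 ± 0.064, with an adjusted p that rounds to 0.05). None of the 3 was called without S2156A replicate 1, 2 or 3 or without R2400* replicate 1, and 8 genes were called without R2400* replicate 2 and 5 with these 2 groups fitted alone. CCNE1 (0.034 ± 0.073), CCNE2 (0.12 ± 0.07) and E2F2 (0.099 ± 0.13) were not called.

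**Figure D4:**
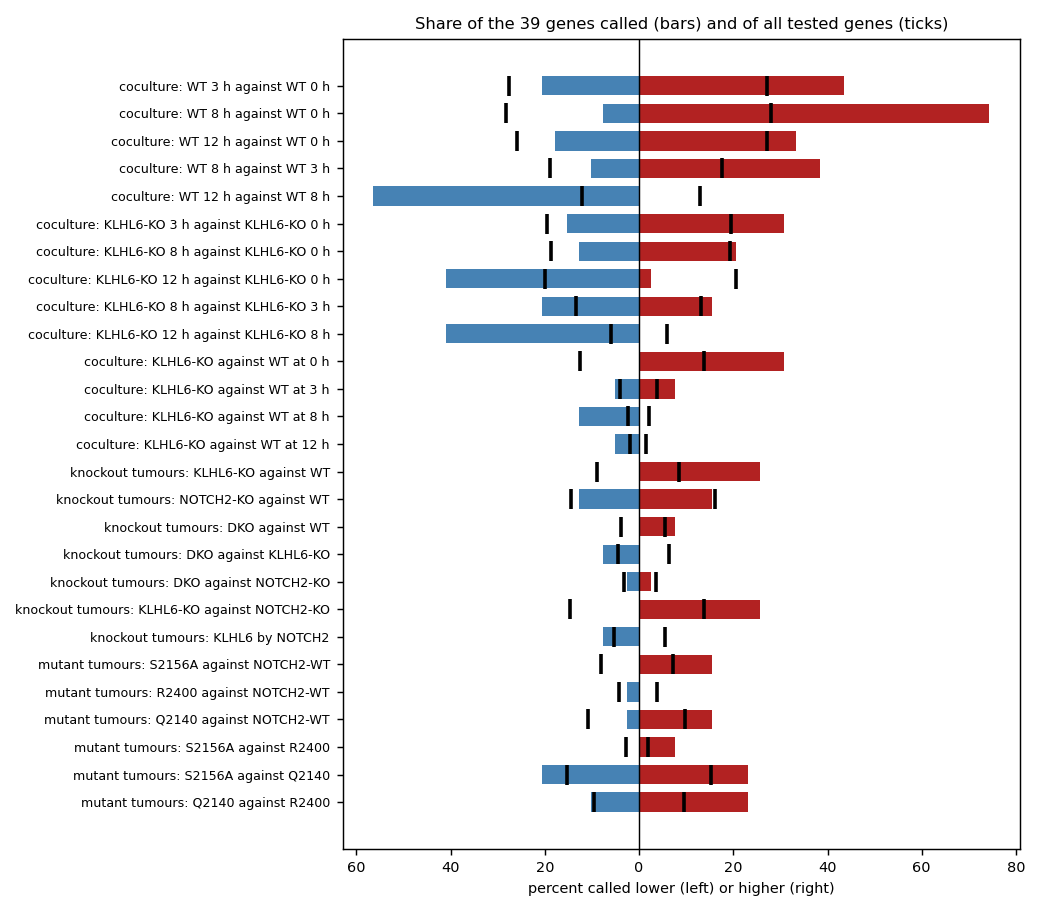
Percent of the 39 genes called lower (bars to the left) and higher (bars to the right) in each comparison of 2 groups and in the KLHL6 by NOTCH2 test, with black ticks at the percent of all tested genes called in the same direction. The bars pass the ticks furthest for WT 8 h against 0 h (higher) and 12 h against 8 h (lower), and knockout tumours are shown as labelled.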

How the data were processed

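Poly(A) RNA of 48 U2932 libraries was measured in 3 experiments of 24, 12 and 12 libraries. The deposited values are a signal per gene, counts that the authors divided by a size factor, as the whole steps of the values show; the submitters' processing notes name STAR, SAMtools, DESeq2 and GRCh38, with versions not given in the sources used here. In every library 100% of values were whole multiples (within 0.02) of 1 step, the worth of 1 read, which gave the depth. Each experiment was normalised separately, so levels were not compared across them.

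Genes that reached 10 in 3 or more libraries of an experiment were tested on log2(value + 2) with limma 3.58.1 (R 4.3.3; trended and robust variance), all libraries of an experiment in 1 fit, with Benjamini-Hochberg adjustment over all tested genes. A fold change on this scale understates that of low genes. The recovered reads were tested with edgeR 4.0.16 as an alternative, which called 8389 genes in WT cells at 8 against 0 h, 32 of the 39 members among them. The procedure was tested on simulated data. Alternatives were TMM scaling, other pseudocounts, no filter, the compared groups alone, a replicate block and each library left out.

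Members and lists were chosen for their function, with earlier results of these data known. All members may be named; per-library values went to up to 4 called members in each direction with the largest change, CCNE1, CCNE2, E2F1 and E2F2 were always given, and from each other list up to 3 called genes in each direction. Further members were named after their values were seen. Coordinates of genes are GENCODE 29 on GRCh38; promoters are RefSeq on GRCh38.p14.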

Additional observations from a re-analysis of the deposited data

Results flagged for a closer look

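For 12 of the 39 genes the response to coculture differed between WT and KLHL6-KO cells by a joint test over 3, 8 and 12 h. That test called 12.4% of all tested genes. The differences include the 0 h libraries, where the genotypes already differed. The mean difference of the KLHL6-KO from the WT log2 change was -0.52 for CCNE2, -0.44 for CDC6, -0.39 for CLSPN, -0.39 for RRM2, -0.38 for FEN1 and -0.36 for E2F2. It was -0.32 for UHRF1, -0.29 for MCM5, -0.26 for PCNA, -0.24 for SLBP, -0.14 for MCM10 and 0.11 for GINS1. In the knockout tumours, as labelled, the effect of 1 loss differed with the other by a log2 of -0.89 for POLA1, -0.69 for POLA2 and -0.54 for FEN1. Of all tested genes 5.31% were called in that direction and 5.53% in the other. Groups of 3 libraries were not tested for outlying samples.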

How the results depend on the processing

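For the counts of called genes, 324 of 386 alternatives stayed within 1.5 times the count reported and 62 did not. With the compared groups fitted alone the count went from 32 to 21 in WT cells at 8 against 0 h, from 5 to 3 between genotypes at 8 h and from 2 to 1 at 12 h. In the knockout tumours as labelled it went from 10 to 5 for KLHL6-KO against WT, from 11 to 7 for NOTCH2-KO, from 3 to 0 for DKO and from 10 to 19 for KLHL6-KO against NOTCH2-KO. In the mutant tumours it went from 6 to 13 for S2156A against NOTCH2(WT), from 1 to 2 for R2400*, from 3 to 5 for S2156A against R2400* and from 13 to 6 for Q2140* against R2400*. With no filter it was 3 between genotypes at 3 h and 1 at 12 h. With edgeR on recovered reads it was 1 for DKO against NOTCH2-KO and 2 for R2400* against NOTCH2(WT), where TMM scaling also gave 2, and a pseudocount of 8 gave 1 for DKO against NOTCH2-KO. Libraries with the same replicate number in different groups correlated above 0.1 in 18 of 84, 3 of 18 and 0 of 18 pairs. In coculture the median correlation was 0.055 for such pairs and -0.025 for pairs with different numbers. Whether the numbers pair the coculture libraries is not settled by these values, and the main fit had no replicate term. As a hint from the data and not the design, 18 of 24 coculture libraries correlated best with their own number, against 5 of 12 and 1 of 12 in the tumours. With the replicate block the count went from 5 to 10 between genotypes at 8 h and from 2 to 1 for DKO against NOTCH2-KO. The cause of these changes was not tested.

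With 1 library left out, the coculture counts in WT cells ran from 21 to 24 (3 against 0 h), 25 to 31 (8 against 0 h), 17 to 20 (12 against 0 h), 13 to 18 (8 against 3 h) and 18 to 24 (12 against 8 h). In KLHL6-KO cells they ran from 14 to 17, 10 to 15, 15 to 17, 9 to 12 and 8 to 16 for the same contrasts. Between genotypes they ran from 9 to 16, 2 to 5, 3 to 7 and 1 to 2 at 0, 3, 8 and 12 h, and 11 to 16 in the joint test. In the knockout tumours they ran from 4 to 17, 5 to 14 and 1 to 8 for KLHL6-KO, NOTCH2-KO and DKO against WT. They ran from 1 to 4 for DKO against KLHL6-KO, 0 to 4 against NOTCH2-KO, 6 to 10 for KLHL6-KO against NOTCH2-KO and 2 to 7 for KLHL6 by NOTCH2. In the mutant tumours they ran from 3 to 5, 1 to 3 and 3 to 9 for S2156A, R2400* and Q2140* against NOTCH2(WT), 0 to 8 for S2156A against R2400*, 11 to 20 against Q2140* and 10 to 14 for Q2140* against R2400*.

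Of 20589 single-gene alternatives, 18883 kept direction and side of the threshold, 1040 lost the call, 211 gained it, 455 uncalled values moved and 0 reversed. The split of calls into higher and lower went from 1 and 1 to 1 and 0 with edgeR for DKO against NOTCH2-KO, from 0 and 1 to 1 and 1 with edgeR or TMM for R2400* against NOTCH2(WT), and from 6 and 1 to 6 and 2 with edgeR for Q2140* against NOTCH2(WT). Depth, lowest in DKO replicate 3, and 3 libraries a group limit small changes.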
